A study of Mus musculus with 12 samples.

Results

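Livers of Atg7-KO;p62T352A mice were compared with livers of Atg7-KO mice across all genes, to see what the threonine-to-alanine exchange T352A in p62 changes when hepatocytes lack autophagy. These are 6 of the 9 mice with a column in the deposited table of gene counts, 3 of each genotype, chosen by their genotype labels. The other 3 are cont. mice, whose values are given beside the comparison. A further 3 p62T352A mice without Cre have labels only and were not analysed here.

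All mice were 3 months old and carried Atg7flox/flox on a C57BL/6 background. Atg7-KO mice also carried Alb-Cre, which deletes the floxed Atg7 alleles in cells that use the albumin promoter, which in the adult liver are the hepatocytes. Atg7-KO;p62T352A mice carried Alb-Cre and p62T352A/T352A, an exchange in the endogenous p62 gene Sqstm1 that was made by prime editing in C57BL/6N embryonic stem cells and is present in every cell of the body. The cont. mice carried Atg7flox/flox alone. RNA was prepared from whole liver, and in such bulk RNA fewer cells of a type and less RNA per cell cannot be told apart.

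ATG7 is the enzyme that starts the conjugation reactions by which autophagosomes form, and p62 is a receptor that gathers ubiquitinated cargo into bodies that autophagy then clears. p62 also binds KEAP1, the adaptor that marks the transcription factor NRF2 for degradation, so that KEAP1 held by p62 leaves NRF2 free to switch on genes of glutathione synthesis, NADPH supply and detoxification. The T352A exchange lies in the stretch of p62 that binds KEAP1 and was made to prevent that contact.

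The exchanged codon is shown with its neighbours, since it is the designed difference between the 2 genotypes. It is the codon changed in T352A, one of 442 in the Sqstm1 transcript ENSMUST00000102774.10, and lies in exon 7 of 8, on the minus strand of chromosome 11 at chr11:50202514-50202516 of GRCm38 (mm10). The stretch below holds codons 345 to 359 of the reference (chr11:50202493-50202537), 5′ to 3′ along the gene, with the threonine codon in capitals.
Sqstm1 codons 345 to 359: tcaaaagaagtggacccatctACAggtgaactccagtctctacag

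Atg7-KO libraries held 16157269, 18480553 and 17769542 counts, and Atg7-KO;p62T352A libraries 16407801, 17357172 and 16133620. Total counts were thus alike in both genotypes, whereas cont. libraries ranged from 9671080 to 23285132. Levels are given as normalized CPM, counts scaled to a common library size (CPM) and between libraries by edgeR's TMM method. TMM factors lay between 1.28 and 1.32 for Atg7-KO libraries and between 0.8229 and 0.9505 for Atg7-KO;p62T352A libraries, so that 1 count is a larger CPM in the latter. The 20 genes with the most counts in a mouse took 16.4% to 17.0% of the counts of Atg7-KO mice and 23.4% to 26.4% of those of Atg7-KO;p62T352A mice. The labels do not give the sex of the mice. Xist, the X-inactivation transcript, had 28 counts in Atg7-KO mouse 1 and 9 in Atg7-KO;p62T352A mouse 1, against 8578 to 13864 in the mice numbered 2 and 3 of both genotypes. Ddx3y, a Y-linked gene, had 1190, 250 and 55 counts in cont. mice 1, 2 and 3, 962, 57 and 9 in Atg7-KO mice and 988, 117 and 45 in Atg7-KO;p62T352A mice. In every genotype mouse 1 was thus low in Xist and highest in Ddx3y, but the libraries of mice 2 and 3 also held Y-linked reads, most in cont. mouse 2 and Atg7-KO;p62T352A mouse 2. The source of these reads was not tested, and the main comparison was also fitted without each mouse.

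Atg7 itself was read first, as a check of the labels. It was at 10.1, 9.57 and 12.0 CPM in Atg7-KO, at 29.7, 27.4 and 29.5 in Atg7-KO;p62T352A and at 46.4, 44.2 and 55.4 in cont. mice. The libraries labelled Atg7-KO;p62T352A thus stood between the other genotypes, 2.73-fold above Atg7-KO (log2 fold change 1.45, SE 0.17, edgeR adjusted p = 1.64e-04) and below every cont. mouse. Gene totals hold the reads of all cell types and of every exon, so they do not show how many hepatocytes had lost the floxed part. Genotypes named below are those of the labels. The part of the higher Atg7 level in the differences that follow was not tested. Sqstm1, which carries the exchange, was at 911, 871 and 960 CPM in Atg7-KO and at 497, 626 and 511 in Atg7-KO;p62T352A mice, with no overlap. It was 1.68-fold lower with the exchange (log2 fold change -0.75, SE 0.22, adjusted p = 0.0174). This call was lost without Atg7-KO mouse 1 (-0.75) or 3 (-0.71) and without Atg7-KO;p62T352A mouse 1 (-0.68) or 3 (-0.70).

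Across the transcriptome the exchange went with changes in about as many genes upward as downward. A gene was called when its Benjamini-Hochberg FDR in edgeR's quasi-likelihood test was under 0.05 and its fold change over 1.5. With the exchange, 3443 of 13922 tested genes (24.7%) were called higher and 3652 (26.2%) lower. Over all of them the log2 fold change had a median of 0.0021 and quartiles of -0.84 and 0.76. The falls were larger than the rises: 1185 genes were called lower and 734 higher by more than 4-fold, and 211 lower and 79 higher by more than 16-fold. The mice of the 2 genotypes did not overlap for 10189 genes (73.2%), and for 7069 of the 7095 called. Genes called higher with the exchange had a median log2 fold change against cont. of -1.03 in Atg7-KO and 0.27 in Atg7-KO;p62T352A livers. For genes called lower these medians were 1.26 and -0.21. The call rule gave 870 genes higher (6.25%) and 743 lower (5.34%) for Atg7-KO;p62T352A against cont. mice. The comparisons share mice, so their values are set side by side only. The coefficient of variation was taken over the 9210 genes with a mean of at least 10 CPM in at least one of both genotypes. Its median was 6.68% over Atg7-KO, 15.4% over Atg7-KO;p62T352A and 26.9% over cont. mice. The fit used 1 estimate of a gene's spread for all genotypes, so cont. mice enter it too. Upper-quartile scaling moved the median of all genes to -0.135 and the calls to 2897 higher and 4141 lower, and changes are given relative to the TMM scale.

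**Figure D1:**
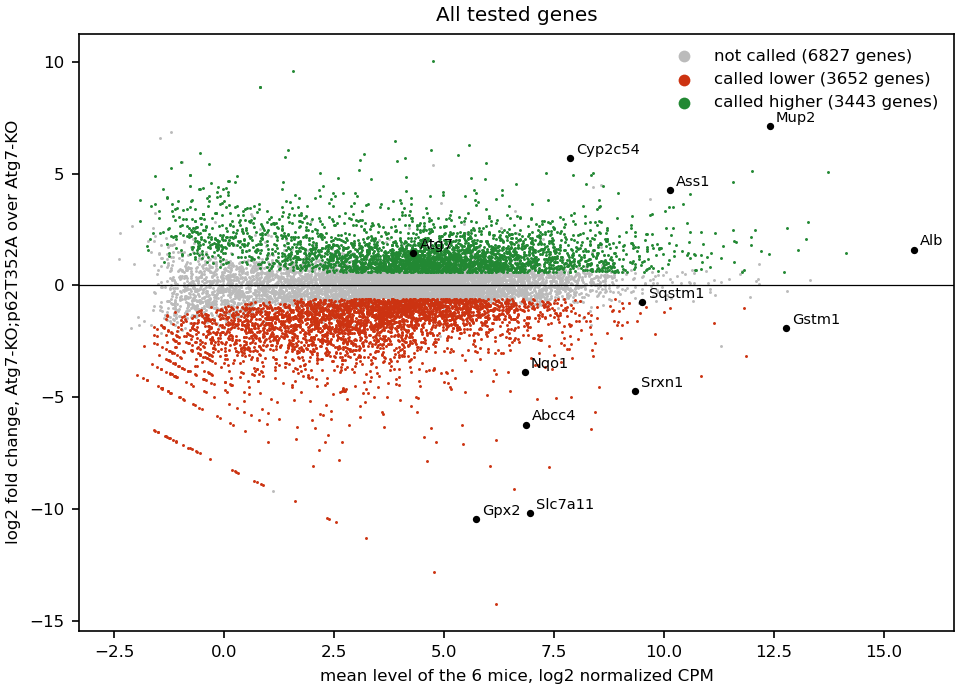
Each point is 1 of 13922 tested genes, placed by its mean level over the 6 mice (log2 normalized CPM) and its log2 fold change between Atg7-KO;p62T352A and Atg7-KO mice, with genes called higher in green and genes called lower in red. The falls reach further than the rises, and Slc7a11 and Gpx2 lie near -10 while Alb, the gene with the highest level marked, lies at 1.60.

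The 6 called rises and 6 called falls with the largest difference in CPM show which RNAs made up the shift. Among the rises were secreted products of the hepatocyte. Alb, which encodes albumin, was at 26339, 27313 and 24669 CPM in Atg7-KO and at 74513, 84968 and 77979 in Atg7-KO;p62T352A mice. The genotypes did not overlap, and the log2 fold change was 1.60 (SE 0.32, adjusted p = 0.00255). The apolipoprotein genes Apoa2, Apoa1 and Apoe, whose products carry plasma lipids, were 7.18-fold, 4.24-fold and 2.72-fold higher. The rest of these rises were Mup2, a major urinary protein gene, and Gm2083, whose symbol was not found in the annotation. Mup2 was 140-fold higher, from 83.3, 114 and 33.6 CPM to 18834, 4726 and 8683 CPM. It shares 77.8% of its 75-base transcript stretches with other genes, most often Mup14, so its own part of these counts is uncertain. The falls were Gstm1, Cyp2a5, Gstm3, Fth1, Clu and Srxn1. Of these, Gstm1 and Gstm3 encode glutathione S-transferases and Fth1 the ferritin heavy chain. Cyp2a5 is a cytochrome P450, Srxn1 encodes sulfiredoxin, which repairs peroxiredoxins, and Clu the chaperone clusterin. Gstm1 was at 12030, 9896 and 11315 CPM in Atg7-KO and at 3755, 2579 and 2461 in Atg7-KO;p62T352A mice.

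By fold change, the 8 largest falls with at least 10 CPM included 6 genes with no count in any Atg7-KO;p62T352A mouse, and the other two were Gpx2 and Slc7a11. Gpx2, a glutathione peroxidase gene, was at 91.4, 105 and 123 CPM in Atg7-KO mice and had 3 counts in all in the Atg7-KO;p62T352A mice. The ratio was 1556, with an exact 95% interval of 532 to 7547 that covers counting error only. Slc7a11 encodes the cystine importer that feeds glutathione synthesis. It was at 340, 182 and 218 CPM in Atg7-KO mice and at 0.214, 0.00 and 0.392 CPM with the exchange, 1158-fold lower (adjusted p = 1.91e-05) and within the range of cont. mice or just below it. The 6 genes without a count were Oaz1-ps, Gm12669, H2-Q8, Gm10052, Gm7334 and Tmem254c. Oaz1-ps, a pseudogene sharing 85.4% of its stretches with Oaz1, was at 159, 136 and 139 CPM in Atg7-KO mice, at least 699-fold above a floor of 3 counts per library. Gm10052, Gm7334 and Tmem254c share 100% of their stretches with other genes and Gm12669 66.0%, and H2-Q8 was not found in the annotation. The call of Tmem254c was lost without Atg7-KO mouse 1 or 2 and without any one of the Atg7-KO;p62T352A mice. In all, 35 genes called lower had no count in any Atg7-KO;p62T352A mouse, 29 of them protein-coding, and 3 genes called higher had none in any Atg7-KO mouse. The cause of these absences was not tested. Of the 8 largest rises, Mup2 and Mup8 are Mup genes and Gm5512, Serpina4-ps1 and D330041H03Rik are annotated as pseudogenes or a processed transcript. Sult5a1, a sulfotransferase gene, was at 0.677, 1.97 and 0.939 CPM in Atg7-KO and at 55.4, 79.9 and 144 in Atg7-KO;p62T352A mice. The others were Lrrc71 (59.2-fold) and Zfp91Cntf, whose symbol was not found in the annotation and which had 3 counts in all in Atg7-KO mice.

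NRF2 targets were the group of metabolic genes with the highest share of members lower with the exchange. Of 44 tested, 38 (86.4%, against 26.2% of all genes) were called lower and none higher, with a median log2 fold change of -1.87. The members of this and the other lists were chosen with earlier results of these data known, so shares and ranks are descriptions only. In Atg7-KO;p62T352A mice 1, 2 and 3 the median of the list stood at -1.70, -1.86 and -2.08 relative to the Atg7-KO mean, and in cont. mice at -1.49, -2.12 and -1.85. Against cont., 2 targets were called higher (6.25% of all genes) and 3 lower (5.34%) in Atg7-KO;p62T352A livers, with a median of 0.03.

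Nqo1, which encodes a quinone reductase and is the usual readout of NRF2, was at 175, 219 and 249 CPM in Atg7-KO mice. With the exchange it was at 11.7, 13.2 and 18.4 CPM, and in cont. mice at 6.36, 7.28 and 12.2. The fall was 14.9-fold (log2 fold change -3.89, SE 0.31, adjusted p = 3.48e-05), with levels of the 2 Cre genotypes far apart and those with the exchange overlapping cont. mice. Glutathione synthesis depends on Gclc and Gclm, the subunits of its first enzyme. Gclc was at 1388, 1478 and 1514 CPM in Atg7-KO and at 449, 218 and 305 in Atg7-KO;p62T352A mice, 4.51-fold lower (SE of the log2 fold change 0.34, adjusted p = 7.36e-04). Gclm was 2.59-fold lower (adjusted p = 0.00255). Pgd, an NADPH-producing enzyme of the pentose phosphate pathway, was at 439, 420 and 452 CPM and at 56.9, 42.9 and 40.1 CPM in the same order, 9.37-fold lower (adjusted p = 1.91e-05). Ugdh, which makes UDP-glucuronic acid for conjugation, was 4.35-fold lower (adjusted p = 6.41e-04). Srxn1 was at 1087, 1281 and 1388 CPM and at 51.9, 43.5 and 47.3 CPM, 26.3-fold lower (adjusted p = 1.83e-05). Abcc4, an exporter of conjugates and bile acids, was at 230, 224 and 232 CPM in Atg7-KO mice and at 2.36, 2.52 and 4.31 CPM with the exchange, a 74.3-fold fall (adjusted p = 7.57e-06). Fth1 fell 2.00-fold (adjusted p = 0.00446). The 6 targets that were not called were Gsta3, Ftl1, Gstp1, Akr7a5, Aox1 and Txn1. For Txn1, thioredoxin, the log2 fold change was 0.42 (adjusted p = 0.111).

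**Figure D2:**
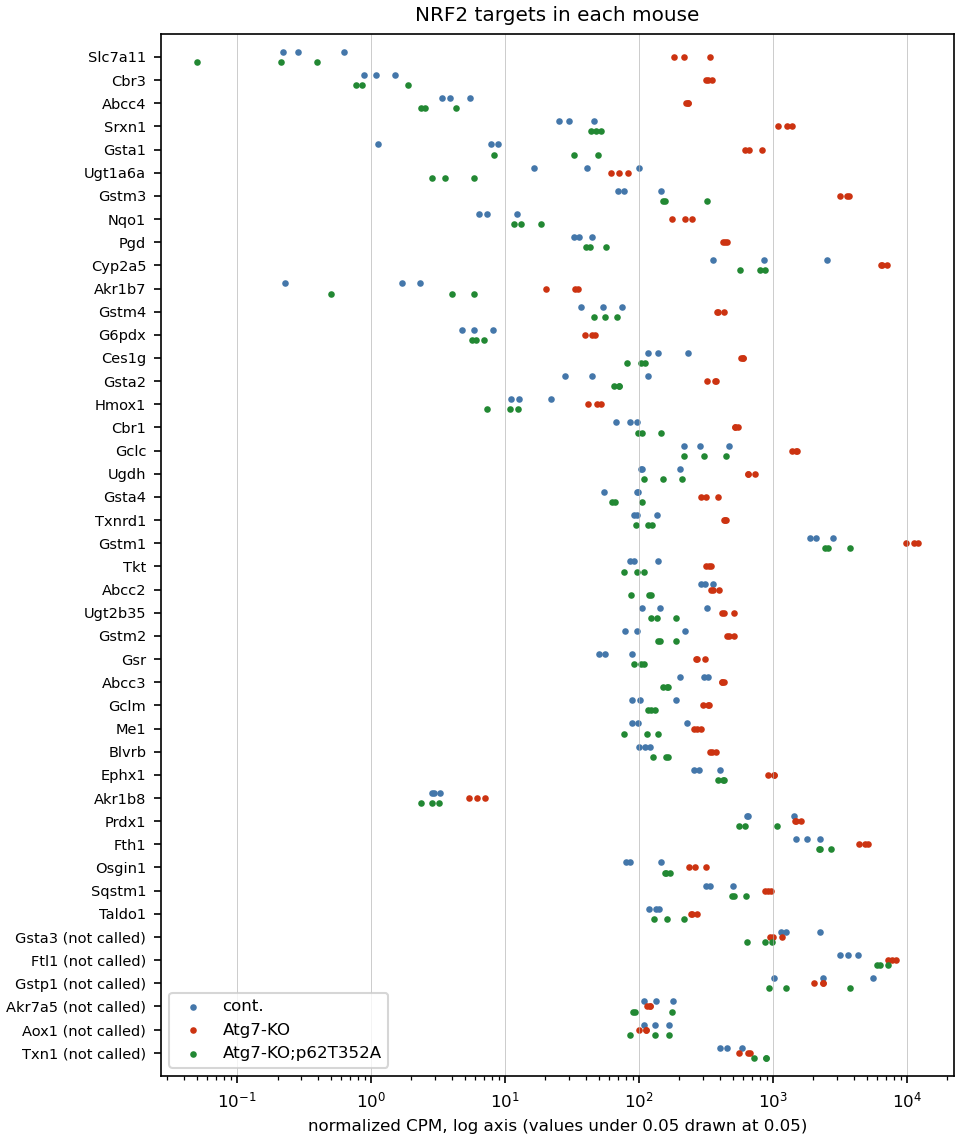
Each row is 1 of 44 tested NRF2 targets, ordered by its log2 fold change from the largest fall at the top, and each point is the normalized CPM of 1 of 9 mice on a log axis. For Nqo1 the Atg7-KO mice lie between 175 and 249 and the Atg7-KO;p62T352A mice between 11.7 and 18.4, near the cont. mice at 6.36 to 12.2.

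Of 13 regulators of NRF2 itself, 2 were called higher and 2 lower, 15.4% each and under the shares of all genes, with a median of 0.00. This median was -0.37 without Atg7-KO;p62T352A mouse 1, 0.23 without Atg7-KO;p62T352A mouse 2 and -0.46 in mice 2 and 3 only. Without 1 mouse, the number lower ranged from 0 (without Atg7-KO;p62T352A mouse 1) to 4 (without cont. mouse 1 or 3), with 1 without Atg7-KO mouse 1 or 3. Nfe2l2, which encodes NRF2, was at 102, 122 and 121 CPM in Atg7-KO and at 168, 71.1 and 106 in Atg7-KO;p62T352A mice, with overlapping genotypes (log2 fold change 0.00, SE 0.43, adjusted p = 0.997). Keap1 was at 50.3, 54.4 and 53.2 CPM and at 59.1, 77.3 and 64.0 CPM in the same order (log2 fold change 0.34, SE 0.15, adjusted p = 0.0841). Mafg, a small MAF partner of NRF2, was 3.08-fold higher (adjusted p = 0.0133). Cul3, the scaffold of the ligase that KEAP1 serves, was 1.87-fold lower (adjusted p = 0.0146). This call was lost without Atg7-KO;p62T352A mouse 1 (log2 fold change -0.76) and with offsets for length and GC content (-0.61). The other regulator called lower was the edited Sqstm1, given above.

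NRF2 and small MAF proteins bind a short DNA element, and the promoters of a pair of targets are shown because they fell together in these livers while only one holds its letters near the start site. The letters TGACNNNGC were searched on both strands of RefSeq promoter windows of GRCm38.p6, from 250 bases before to 50 after each gene's start. The first 4 letters also occur in the sites of other bZIP factors. Of 32851 windows 12.4% held a match, and of windows of genes tested here 16.9% did. The share was 17.4% for genes called lower, 16.8% for genes called higher and 28.2% (11 of 39 with a window) for the NRF2 targets. The windows below read 5′ to 3′ along each gene, with the match in capitals. That of Gclm lies at chr3:122245307-122245606 on the plus strand, with the match starting at base -134 from the start site. That of Nqo1 lies at chr8:107403156-107403455 on the minus strand and holds no match, which says only that these letters are not in this window.
Gclm promoter: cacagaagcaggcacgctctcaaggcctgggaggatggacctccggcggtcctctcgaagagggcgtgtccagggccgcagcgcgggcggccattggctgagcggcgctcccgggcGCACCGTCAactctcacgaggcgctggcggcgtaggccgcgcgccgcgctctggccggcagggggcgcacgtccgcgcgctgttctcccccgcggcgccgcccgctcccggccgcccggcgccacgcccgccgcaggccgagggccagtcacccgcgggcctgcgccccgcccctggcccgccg
Nqo1 promoter: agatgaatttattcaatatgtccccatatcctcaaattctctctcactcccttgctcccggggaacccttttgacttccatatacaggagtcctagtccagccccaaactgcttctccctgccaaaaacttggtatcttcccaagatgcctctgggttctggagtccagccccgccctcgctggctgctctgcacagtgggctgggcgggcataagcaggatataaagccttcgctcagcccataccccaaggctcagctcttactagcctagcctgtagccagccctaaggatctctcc

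Genes of glutathione use and supply went both ways. These lists share members with the NRF2 targets, so many of their falls were counted above as well. Shared members called lower include Gclc, Gclm, Gsr and Slc7a11, the NADPH-producing G6pdx, Pgd, Tkt, Taldo1 and Me1, and transferases of the alpha and mu classes. Of 22 glutathione S-transferases tested, 11 were called lower (50%, against 26.2% of all genes) and 7 higher (31.8%, against 24.7%). The median log2 fold change was -0.65, and -1.06 with offsets for length and GC content. Most of those lower were of the alpha and mu classes, though Gstm6 and Gstm7 of the mu class were called higher, and the largest fall was that of the microsomal Mgst2, at 9.09, 7.68 and 9.98 CPM in Atg7-KO mice and at 0.0714, 0.210 and 0.196 CPM with the exchange. Among those higher was Gstt1 of the theta class, at 177, 168 and 169 CPM and at 549, 575 and 549 CPM, a 3.26-fold rise (adjusted p = 2.51e-04). Of 12 genes of glutathione synthesis and recycling, 7 were called lower (58.3%, against 26.2% of all genes) and 2 higher (16.7%, against 24.7%), with a median of -0.83. The 2 called higher, Cbs and Cth, encode the transsulfuration enzymes that make cysteine from methionine, and 1 was called higher without Atg7-KO mouse 2 or 3 or Atg7-KO;p62T352A mouse 2. Cbs was at 161, 155 and 142 CPM in Atg7-KO and at 631, 715 and 604 in Atg7-KO;p62T352A mice. Of 11 NADPH-producing enzymes, 6 were called lower (54.5%, against 26.2% of all genes) and none higher. Without Atg7-KO;p62T352A mouse 3 these were 3 lower, and without cont. mouse 1, 2 were called higher.

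Genes of autophagy moved little as a group. Of 30 genes of the core machinery, 7 were called higher and 3 lower, near or under the shares of all genes. The largest rise was that of Atg7, the floxed gene itself, given above. The list median of 0.10 turned to -0.04 under upper-quartile scaling. Atg12, which ATG7 joins to ATG5, was at 49.3, 50.8 and 48.7 CPM in Atg7-KO and at 15.8, 18.8 and 16.1 in Atg7-KO;p62T352A mice, 2.93-fold lower (adjusted p = 0.0019). Without Atg7-KO mouse 1 or without Atg7-KO;p62T352A mouse 1 only 1 core gene was called lower. Of 17 selective autophagy receptors, 3 were called higher (17.6%) and 4 lower (23.5%, the edited Sqstm1 among them), both under the shares of all genes. Only 1 was higher without Atg7-KO mouse 2 or 3, and 1 lower without Atg7-KO mouse 1 or Atg7-KO;p62T352A mouse 1 or 3, with 2 lower without Atg7-KO mouse 3. Sec62, an ER-phagy receptor, was at 173, 151 and 160 CPM and at 642, 630 and 750 CPM, 4.18-fold higher (adjusted p = 6.50e-05) and also above the cont. mice at 218, 275 and 286 CPM. The ER-phagy receptors Atl3 and Fam134c were 2.33-fold (adjusted p = 0.00172) and 1.79-fold lower (adjusted p = 0.0255). The call of Fam134c was lost without any one of the Atg7-KO mice (-0.80, -0.83 and -0.89) and without Atg7-KO;p62T352A mouse 1 (-0.66) or 3 (-0.75). The receptors Tex264 (log2 fold change 0.44, adjusted p = 0.0603), Ccpg1 (-0.29, 0.276), Nbr1 (0.18, 0.364) and Tax1bp1 (0.37, 0.124) were not called.

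Of 29 lysosomal genes, 14 were called lower (48.3%, against 26.2% of all genes) and 1 higher, with a median of -0.62, or -0.43 with offsets for length and GC content. Gpnmb, a glycoprotein of lysosome-rich macrophages, was at 18.4, 17.4 and 19.8 CPM in Atg7-KO and at 0.928, 1.47 and 3.00 in Atg7-KO;p62T352A mice, 10.2-fold lower (adjusted p = 2.36e-04). Tfeb, a transcription factor of lysosomal genes, was the member called higher (1.91-fold, adjusted p = 0.0159), which was lost without Atg7-KO mouse 2 (0.94) or 3 (0.90) and with those offsets (0.53). Of 31 proteasome subunits, 12 were called higher (38.7%, against 24.7% of all genes) and 3 lower (9.68%, against 26.2%), with a median of 0.36. Under upper-quartile scaling 8 were higher and 4 lower, with a median of 0.23, and 7 were called higher with a median of 0.08 without Atg7-KO;p62T352A mouse 2. With offsets for length and GC content 8 were higher and 5 lower, with a median of 0.14. Without any one of the Atg7-KO mice, Atg7-KO;p62T352A mouse 1 or 3 or cont. mouse 2, 1 was called lower. Psmd1, a subunit of the regulatory particle, was at 98.1, 95.2 and 101 CPM and at 390, 389 and 410 CPM, 4.04-fold higher (adjusted p = 1.30e-04). In the list of ATF4 targets and ER stress genes, 6 of 22 were called higher and 6 lower, 27.3% each and near the shares of all genes. These were 3 lower without Atg7-KO mouse 3 and 3 higher with offsets for length and GC content. Psat1, of serine synthesis, was 9.26-fold lower (adjusted p = 1.18e-04), and the ER chaperone gene Sdf2l1 was 3.65-fold higher (adjusted p = 0.011), a call lost with offsets for length and GC content (1.29).

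Genes of mitochondrial respiration were mostly higher with the exchange. Of 36 subunits of complex I, which takes electrons from NADH, 28 were called higher (77.8%, against 24.7% of all genes) and none lower, with a median log2 fold change of 1.23. Ndufa5 had the largest rise, from 42.8, 36.5 and 41.9 CPM in Atg7-KO mice to 195, 223 and 188 CPM, 5.00-fold (adjusted p = 1.26e-04). Every Atg7-KO;p62T352A mouse was above every mouse of the other genotypes, with cont. mice at 66.6, 98.2 and 134 CPM. Of 38 subunits of complexes II to V, 21 were called higher and none lower, with a median of 0.81, and 2 were called lower without cont. mouse 1 or Atg7-KO;p62T352A mouse 2. Uqcrq, of complex III, was at 234, 181 and 213 CPM and at 1143, 1179 and 968 CPM, 5.24-fold higher (adjusted p = 5.80e-05). Transcript length went with the fold change across all genes (Spearman's rho -0.154 over 13815 genes, which are not independent replicates). Against cont. this rho was -0.287 for Atg7-KO;p62T352A and 0.0114 for Atg7-KO mice. Many of the respiratory subunits have short transcripts. With offsets for length and GC content the medians were 0.72 and 0.35, and for complexes II to V 15 were called higher and 3 lower.

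Urea cycle and amino acid breakdown was, after complex I, the metabolic list with the largest share of members higher. Of 38 genes, 28 (73.7%, against 24.7% of all genes) were called higher and none lower, with a median of 1.44. The list median stood at 1.41, 1.51 and 1.29 in the 3 Atg7-KO;p62T352A mice. Ass1, the urea cycle enzyme that joins citrulline to aspartate, was at 141, 96.4 and 98.3 CPM in Atg7-KO and at 2337, 1890 and 2184 in Atg7-KO;p62T352A mice, 19.1-fold higher (adjusted p = 9.56e-05). All 3 mice with the exchange were above the cont. mice, at 535, 1070 and 1778 CPM. Ass1 shares 32.6% of its stretches with Gm5424.

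Among xenobiotic cytochrome P450s, 13 of 36 were called higher (36.1%, against 24.7% of all genes) and 3 lower (8.33%, against 26.2%), with a median of 1.27. The list median stood at 0.03 in Atg7-KO;p62T352A mouse 1, the mouse low in Xist, and at 1.21 and 0.95 in mice 2 and 3. The part of sex in this difference was not tested. Cyp2c54 was at 13.3, 10.3 and 3.16 CPM in Atg7-KO and at 286, 540 and 544 in Atg7-KO;p62T352A mice, 51.2-fold higher (adjusted p = 7.84e-05). Cyp2a5, at 6490, 6427 and 7083 CPM in Atg7-KO mice and at 796, 570 and 876 with the exchange, went the other way, 8.92-fold lower (adjusted p = 0.00211). These families hold close paralogs, and 14.1% of the stretches of Cyp2c54 and 22.3% of those of Cyp2a5 occur in other genes.

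Lipid genes went both ways, and in the lists of synthesis the shares called were nearer to the 24.7% higher and 26.2% lower of all genes than in that of oxidation. In fatty acid oxidation and ketogenesis, 16 of 32 genes were called higher and 2 lower (median 0.79). The number lower was 1 without any one of the Atg7-KO mice or Atg7-KO;p62T352A mouse 1 or 3. It was 3 without Atg7-KO;p62T352A mouse 2 or cont. mouse 1. The largest rise was that of Cyp4a14, a PPAR-alpha target that hydroxylates fatty acids, at 9.04, 31.5 and 19.8 CPM and at 104, 1181 and 658 CPM, 32.2-fold higher (adjusted p = 0.00534). Ehhadh, a peroxisomal oxidation enzyme, was 3.05-fold lower (adjusted p = 0.00773). In fatty acid and triglyceride synthesis, 7 of 20 were called higher and 3 lower, but 4 each way under upper-quartile scaling and 6 each way in mice 2 and 3 only, with 4 higher without any one of the Atg7-KO mice and 5 lower without Atg7-KO;p62T352A mouse 1. Mlxipl, the glucose-sensing transcription factor ChREBP, was at 93.7, 118 and 110 CPM and at 1110, 565 and 924 CPM, 8.08-fold higher (adjusted p = 0.00226). Gpam, the first enzyme of triglyceride synthesis, was at 75.6, 88.8 and 65.2 CPM in Atg7-KO and at 14.7, 5.95 and 5.61 in Atg7-KO;p62T352A mice, 8.74-fold lower (adjusted p = 0.0011) and also below the cont. mice at 144, 65.0 and 38.1 CPM. Of 24 cholesterol synthesis genes 8 were called lower and 1 higher (median -0.39). Without Atg7-KO;p62T352A mouse 1 or 3 these were 4 and 5 lower, and the median was -0.69 without mouse 2 and -0.19 without mouse 3. Ebp, a sterol isomerase, was the member called higher (2.21-fold, adjusted p = 0.00435).

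In bile acid synthesis and transport, 9 of 23 were called higher (39.1%, against 24.7% of all genes) and 5 lower (21.7%, under the 26.2% of all genes). The largest fall was that of the exporter Abcc4 and the largest rise that of Slco1a1, an uptake carrier of the sinusoidal membrane, at 9.43, 12.1 and 3.07 CPM and at 338, 148 and 88.9 CPM (adjusted p = 0.00242). For glucose metabolism 6 of 21 were called higher and 6 lower, 28.6% each and near the shares of all genes. Pkm, the pyruvate kinase of non-hepatocyte cells, was 4.74-fold lower (adjusted p = 8.42e-05). Pkm shares 17.8% of its stretches with other genes.

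Secreted and growth hormone-dependent products of hepatocytes were largely higher. Of 37 complement and coagulation factors, 20 were called higher (54.1%, against 24.7% of all genes) and 3 lower (8.11%, against 26.2%), with a median of 0.67. Without Atg7-KO mouse 3, 13 were called higher. C8g, a chain of complement component 8, was 7.11-fold higher (adjusted p = 5.69e-05). Masp1, a protease of the lectin pathway, was at 42.6, 48.0 and 39.6 CPM in Atg7-KO and at 8.28, 5.25 and 5.29 in Atg7-KO;p62T352A mice, 6.92-fold lower (adjusted p = 6.89e-04). In the growth hormone and IGF list, 12 of 21 (57.1%) were called higher and none lower (median 1.37), led by Mup2. Without Atg7-KO;p62T352A mouse 1 the median was 0.86. Of 16 hepatocyte transcription factors, 10 were called higher (62.5%) and 1 lower (6.25%), with a median of 0.92. Onecut2 was 5.39-fold higher (adjusted p = 7.50e-04), and Nr5a2, a nuclear receptor of bile acid genes, was 2.13-fold lower (adjusted p = 0.00318).

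**Figure D3:**
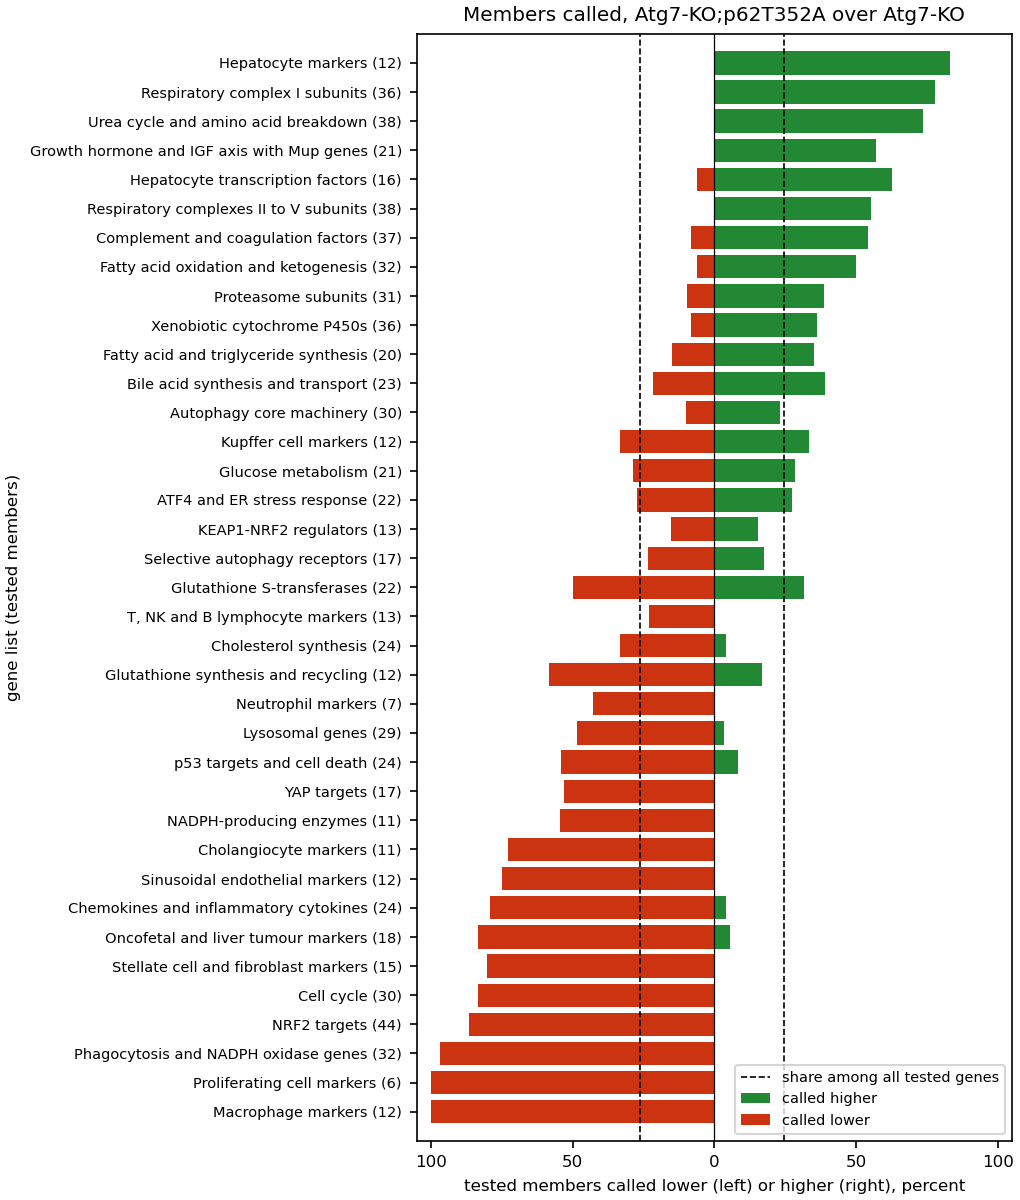
Bars give the percentage of tested members of each list that were called higher (right, green) or lower (left, red) in Atg7-KO;p62T352A than in Atg7-KO mice, with the number tested in brackets. The dashed lines mark the shares of all tested genes, 24.7% and 26.2%.

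Genes of division and tumour markers were mostly lower with the exchange, and those of cell death and YAP in smaller shares. Of 30 cell cycle genes 25 (83.3%, against 26.2% of all genes) were called lower and none higher, with a median of -2.20. Bub1, a kinase of the spindle checkpoint, was at 5.37, 8.38 and 8.83 CPM in Atg7-KO and at 0.286, 0.350 and 0.653 in Atg7-KO;p62T352A mice, 17.1-fold lower (adjusted p = 8.60e-05). Of 24 p53 targets and cell death genes, 13 were called lower (54.2%) and 2 higher (8.33%, against 24.7% of all genes), with a median of -0.71. Without any one of the 6 mice of these genotypes, 1 was called higher. Tnfrsf10b, a death receptor, was 7.47-fold lower (adjusted p = 2.63e-04), and Gsdmd, the pore-forming gasdermin D, was 1.72-fold higher (adjusted p = 0.0134), a call lost with offsets for length and GC content (0.53). Of 18 oncofetal and liver tumour markers, 15 were called lower (83.3%) and 1 higher (5.56%), with a median of -2.64. Spink1, a trypsin inhibitor, was at 61.0, 46.8 and 60.9 CPM and at 0.357, 0.0700 and 0.849 CPM, 128-fold lower (adjusted p = 2.59e-05). Igf2, which shares 60.3% of its stretches with Gm49394, was the member called higher, at 1.21, 0.700 and 3.46 CPM with the exchange. This call was lost without cont. mouse 3 (1.92), without Atg7-KO mouse 1 (1.46), 2 (2.23) or 3 (2.19) and without Atg7-KO;p62T352A mouse 1 (2.13) or 3 (1.01), and also under upper-quartile scaling (1.79) and in mice 2 and 3 only (1.68). Of 17 YAP targets 9 (52.9%, against 26.2% of all genes) were called lower and none higher (median -0.71). The largest fall was that of Ptpn14, a phosphatase that restrains YAP, at 18.0, 17.1 and 15.6 CPM and at 2.93, 2.10 and 3.85 CPM.

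Inflammatory genes were mostly lower. Of 32 genes of phagocytosis and the NADPH oxidase, 31 (96.9%, against 26.2% of all genes) were called lower and none higher, with a median of -1.78. The largest fall was that of Siglecf, a lectin receptor at a low level, at 1.21, 1.48 and 1.45 CPM in Atg7-KO mice and with 4 counts in all in Atg7-KO;p62T352A mice, a ratio of 15.1 with an exact 95% interval for counting error of 5.72 to 56.7. Of 24 chemokines and cytokines, 19 were called lower (79.2%) and 1 higher (4.17%), with a median of -1.88. Without cont. mouse 3, 2 were called higher. Ccl2, which attracts monocytes, was at 28.8, 26.0 and 31.1 CPM and at 0.571, 1.40 and 2.09 CPM, 20.9-fold lower (adjusted p = 8.60e-05) with cont. mice at 0.917, 0.284 and 1.10 CPM, so that 2 of the mice with the exchange were above all cont. mice. Against cont., 5 of the 24 were called higher in Atg7-KO;p62T352A livers (6.25% of all genes) and none lower, with a median of 0.76. The member called higher was Il18 (1.69-fold, adjusted p = 0.0151), which was lost without Atg7-KO mouse 2 (0.70) or 3 (0.73) and with offsets for length and GC content (0.31).

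**Figure D4:**
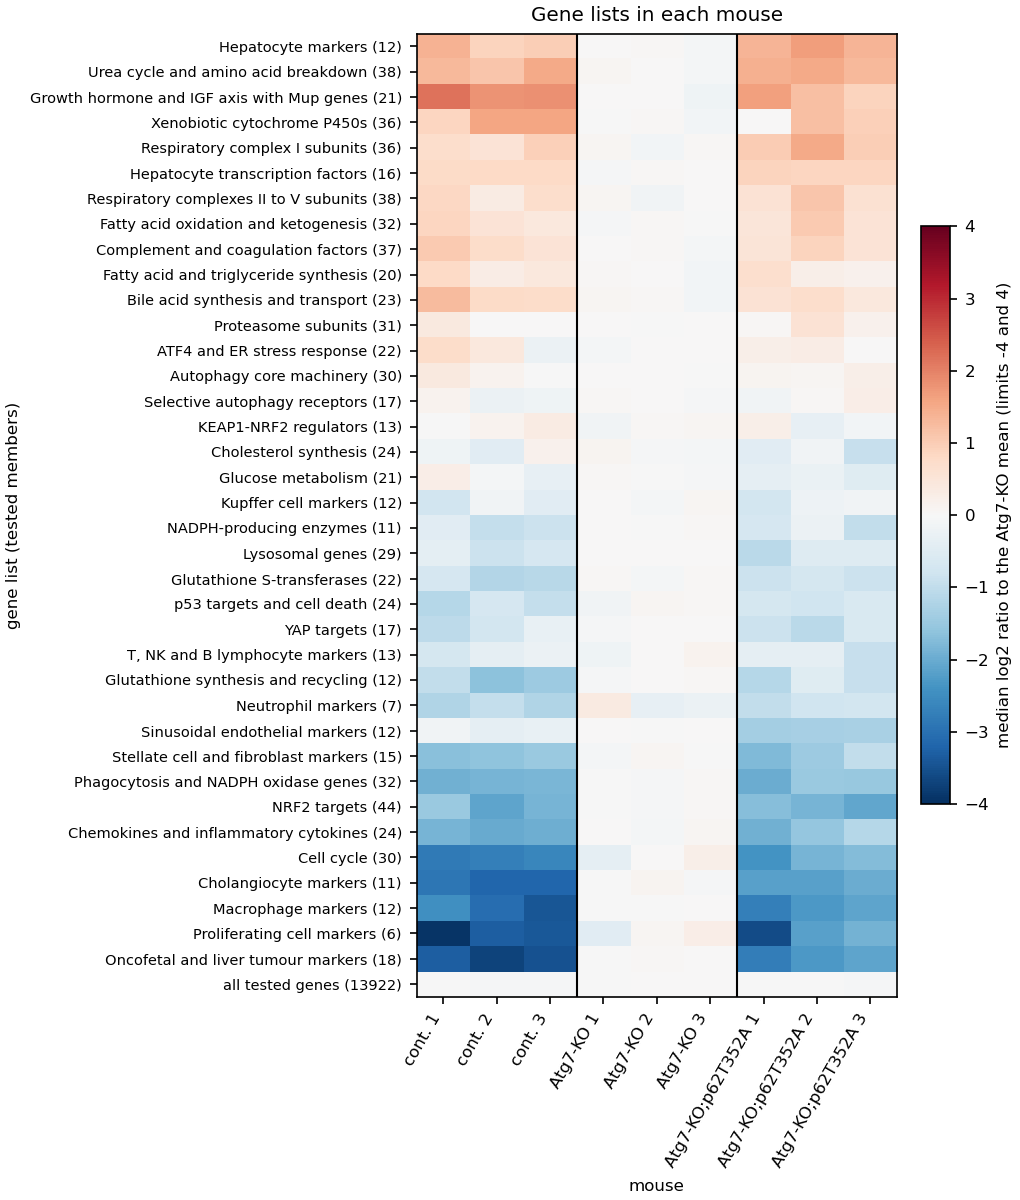
Each cell gives, for a gene list (row, tested members in brackets) and a mouse (column), the median over its members of the log2 ratio of the mouse to the Atg7-KO mean, red for higher and blue for lower. The 3 Atg7-KO;p62T352A columns look alike for most lists and mostly have the colour of the cont. columns, while sinusoidal endothelial markers are lower (-1.35, -1.33 and -1.29) than in cont. mice (-0.15, -0.35 and -0.29).

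Markers of the cell types of the liver moved with these groups, and their part in the differences was not tested. Some markers are also members of the lists above, such as Cd68, Itgam and Trem2 (phagocytosis) and Spp1 (chemokines and cytokines). The marker lists are thus not separate from those lists. The livers carried the defining genes of hepatocytes in all mice. Of 12 hepatocyte markers 10 (83.3%, against 24.7% of all genes) were called higher and none lower (median 1.5). Their summed level was 55626, 56513 and 51909 CPM in Atg7-KO and 140059, 165041 and 136717 in Atg7-KO;p62T352A mice. Alb was the most abundant and Pck1, of gluconeogenesis, rose most at 5.16-fold (adjusted p = 1.18e-04). All 12 macrophage markers were called lower (against 26.2% of all genes), with a median of -2.55. Their sum was 2388, 2305 and 2251 CPM in Atg7-KO and 376, 395 and 515 in Atg7-KO;p62T352A mice. Their most abundant gene was Spp1 (osteopontin), which cholangiocytes also make, with means of 871 and 172 CPM. Lyz2, lysozyme, fell most at 13.2-fold (adjusted p = 8.05e-04).

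Markers of Kupffer cells, the resident macrophages, went both ways, with 4 of 12 called higher and 4 lower, 33.3% each against 24.7% and 26.2% of all genes. Cd163, a haemoglobin scavenger receptor, was 3.43-fold higher (adjusted p = 0.00179) and Cd5l 4.78-fold lower (adjusted p = 3.68e-04). The summed level was 1044, 940 and 994 CPM in Atg7-KO and 670, 709 and 558 in Atg7-KO;p62T352A mice, with the iron exporter gene Slc40a1 most abundant at means of 264 and 82.2 CPM. Of 11 cholangiocyte markers 8 were called lower and none higher (median -2.34). Their sum, again led by Spp1, was 1107, 1031 and 915 CPM and 213, 209 and 292 CPM. Krt19, a keratin of bile ducts, was at 7.59, 7.85 and 6.44 CPM in Atg7-KO, at 2.07, 3.15 and 3.20 in Atg7-KO;p62T352A and at 1.03, 0.946 and 2.31 in cont. mice, and was 2.59-fold lower with the exchange (adjusted p = 0.00607). Ggt1 fell most, to 4 counts in all.

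Of 15 markers of stellate cells and fibroblasts 12 (80%, against 26.2% of all genes) were called lower and none higher (median -1.51). Their sums were 1110, 1308 and 1164 CPM in Atg7-KO and 472, 418 and 710 CPM in Atg7-KO;p62T352A mice. Col1a1, a chain of type I collagen, was at 108, 147 and 142 CPM in Atg7-KO and at 16.2, 11.1 and 25.7 in Atg7-KO;p62T352A mice, 7.48-fold lower (adjusted p = 3.77e-04). The most abundant of these markers, Dcn, had means of 285 and 283 CPM. Of 12 sinusoidal endothelial markers 9 (75%, against 26.2% of all genes) were called lower and none higher (median -1.37). This list was also lower than in cont. mice, with 8 of 12 called lower (against 5.34% of all genes) and none higher. Its sum was 571, 575 and 588 CPM in Atg7-KO, 298, 344 and 335 in Atg7-KO;p62T352A and 522, 711 and 624 in cont. mice, so that mice with the exchange were below every other mouse. Kdr, the VEGF receptor of endothelial cells, was at 38.0, 42.1 and 41.9 CPM, at 6.85, 7.50 and 6.20 CPM and at 51.3, 36.0 and 38.8 CPM in the same order. It was 5.94-fold lower than in Atg7-KO (adjusted p = 2.59e-05) and had a log2 fold change of -2.62 against cont. (adjusted p = 0.00142). The most abundant endothelial marker, the scavenger receptor Stab1, had means of 65.9 CPM in Atg7-KO and 77.7 in Atg7-KO;p62T352A mice and was not called.

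The other marker lists were at low levels. All 6 markers of proliferating cells, each also a member of the cell cycle list, were called lower (median -2.56). Their sums were 90.0, 139 and 154 CPM in Atg7-KO and 10.5, 26.9 and 31.9 in Atg7-KO;p62T352A mice. Mki67 was the most abundant, at means of 33.4 and 6.13 CPM, and Ccnb1, cyclin B1, had the largest fall (8.28-fold, adjusted p = 0.00365). Of 13 lymphocyte markers 3 (23.1%, under the 26.2% of all genes) were called lower and none higher, and 2 higher without cont. mouse 1, with sums of 26.0, 26.6 and 32.1 CPM and of 23.6, 21.2 and 16.2 CPM. The largest fall was that of Cd8b1, a co-receptor of cytotoxic T cells (2.75-fold, adjusted p = 0.00305). Of 7 neutrophil markers 3 (42.9%, against 26.2% of all genes) were called lower, and 5 without Atg7-KO;p62T352A mouse 2 or without cont. mouse 1. Their sums were 20.6, 12.9 and 16.8 CPM and 8.35, 7.99 and 11.0 CPM. Csf3r was the most abundant at means of 6.99 and 5.32 CPM, while Ngp, a granule protein, fell to 4 counts in all. No marker that is listed in the table was at 0 in all 6 mice.

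**Figure D5:**
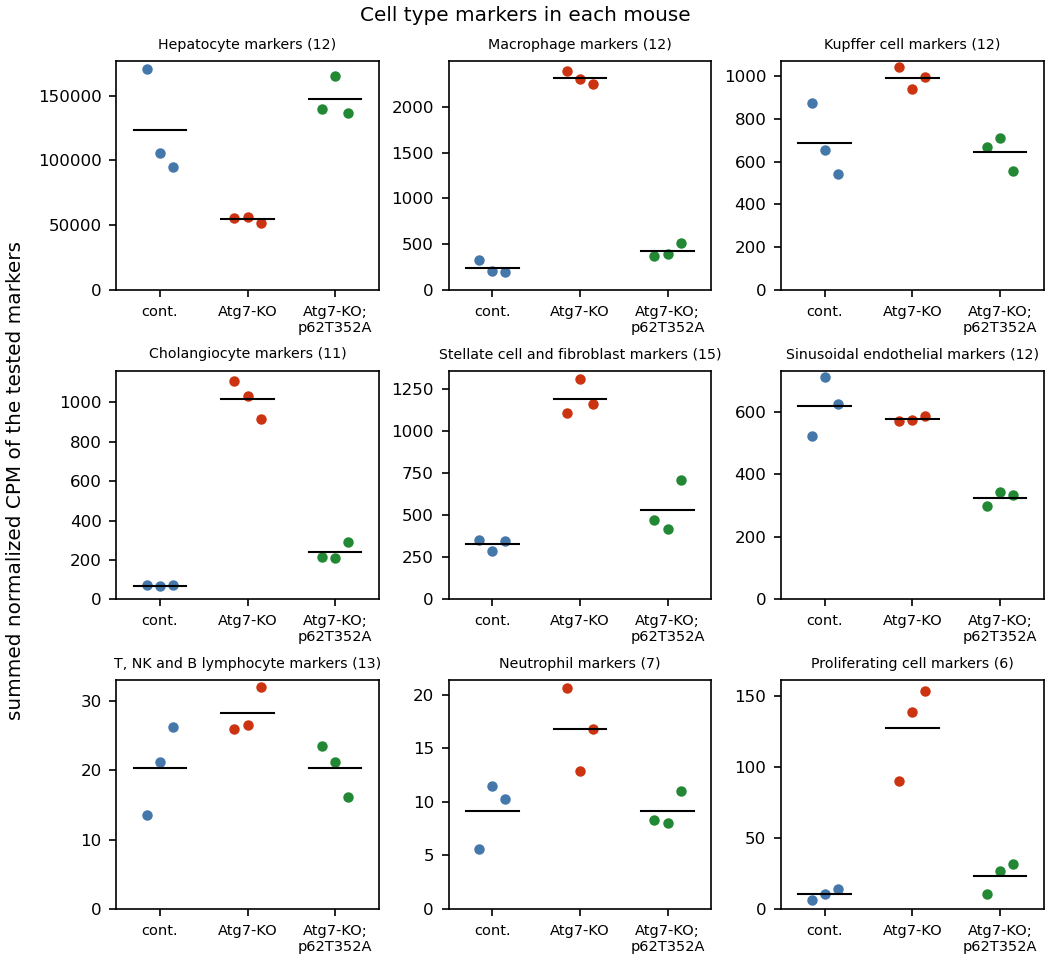
Each panel gives the summed normalized CPM of the tested markers of 1 cell type (number in brackets), with a point per mouse, a line at the genotype mean and a linear axis from 0. Hepatocyte markers are higher and macrophage, cholangiocyte, stellate and proliferating cell markers lower in Atg7-KO;p62T352A than in Atg7-KO mice without overlap, and sinusoidal endothelial markers are lower than in both other genotypes.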

How the data were processed

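From liver poly(A) RNA the authors obtained single-end reads of 75 bp. They used Trim Galore for trimming, STAR for alignment to mm10 and RSEM for quantification, as the study and the submitters' processing notes give it. Versions, annotation and strand setting are not given in the sources used here, so overlapping and antisense genes and near-identical copies can share reads. The deposited table holds expected counts per gene, estimated by the authors with no scaling for library size, and 7.46% to 9.26% of values in a mouse were not whole. These were rounded. All columns were used. The study names TRIzol and the labels a column-based kit for the extraction of RNA.

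Of 24411 genes, 24030 were matched to GENCODE release M21 (651 by synonym). The 9 mice were fitted together in edgeR 4.0.16 (R 4.3.3; filterByExpr, TMM, glmQLFit, glmQLFTest, two-sided), and FDR values are Benjamini-Hochberg over all 13922 genes tested. SE is the standard error of the log2 fold change. Nothing says whether the mice of a genotype came from separate litters. The p-values weigh each difference against the spread between mice of a genotype, estimated over all 9 mice, cont. mice included. Genes were named by a rule: the 8 largest log2 rises and falls called with at least 10 CPM and no overlap, the 6 largest CPM differences each way, the largest called rise and fall of each list, genes the study names and sex-linked genes. Gclm, Cth, Txn1, Dcn, Stab1 and the other genes outside this rule were named after their values were seen. The members of the 28 gene lists and 9 marker lists were chosen with earlier results of these data known, and some genes are in several lists. Per-mouse list medians used log2 with a pseudocount of 0.5 CPM. Stretches of 75 bases were compared between GENCODE transcripts. The steps were tested on simulated data. Alternatives were DESeq2 1.42.0, other scalings, filters and call rules, subsets of mice, a replicate block and, chosen after seeing the data, offsets for transcript length and GC content and the 6 mice with the block. Python 3.11.15 with pandas 2.3.3 and matplotlib 3.10.9 was used for tables and figures. Results for a few genes are not reported here.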

Additional observations from a re-analysis of the deposited data

How the results depend on the processing

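The named genes called between the 2 genotypes kept their direction under each of the 23 alternatives that tested them. A minimum of 10 counts left 31 of 97 named genes untested, Gpx2 and Slc7a11 among them, and the length and GC offsets 3 without annotation. Calls were lost under glmTreat for 7 named genes (Sqstm1, Cul3, Fam134c, Tfeb, Gsdmd, Igf2 and Il18) and with the offsets for 5 (Cul3 at -0.61, Tfeb at 0.53, Gsdmd at 0.53, Il18 at 0.31 and Sdf2l1 at 1.29), with Fam134c (-0.79) as a sixth when the block was added. Fits without 1 mouse lost at most 5. DESeq2 shared 7001 of the 7095 calls and DESeq2's size factors in edgeR 6988. glmTreat, which tests against a fold of 1.5, called 4718 genes, 2157 higher and 2561 lower. Fits without 1 mouse called 5652 to 8142 genes, 2667 to 4007 higher and 2985 to 4135 lower, and 33 to 38 NRF2 targets lower. Upper-quartile scaling moved the share of calls that were higher from 48.5% to 41.1%. A minimum of 10 counts in every mouse left 2797 genes higher and 2828 lower, 16 of 25 cell cycle genes, 7 of 15 oncofetal genes, 10 of 19 chemokines, 2 of 8 cholangiocyte markers and 0 of 3 neutrophil and 0 of 3 lymphocyte markers lower, since genes at low levels with the exchange were no longer tested. The 6 mice alone gave 3903 higher and 4047 lower, and mice numbered 2 and 3 alone 3691 and 3884. The mouse numbers are not known to pair the mice, though mouse 1 was low in Xist in every genotype, so a block by number also holds that difference. The deviations of same-numbered Atg7-KO and Atg7-KO;p62T352A mice from their genotype means correlated at 0.261, 0.0187 and 0.181, and 4 of 6 mice correlated best with their own number. With the number as a replicate block, 3365 genes were called higher and 3629 lower, 6833 of them as before, and the median of lysosomal genes was -0.96 in place of -0.62. With offsets for length and GC content, chosen after seeing the data, these were 3410 and 3520, and with both 3355 and 3514. Depth limits genes at 0: a floor of 3 counts is 0.132 CPM in Atg7-KO and 0.207 in Atg7-KO;p62T352A mice, for counting error only.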

Other observations

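Of the 94 tested genes within 5 Mb of the exchanged Sqstm1 codon, 17 (18.1%) were called higher with the exchange and 24 (25.5%) lower. On all of chromosome 11 these shares were 25.4% and 23.7%, and over all genes 24.7% and 26.2%. Oaz1-ps, at 0 in every Atg7-KO;p62T352A mouse and at 3269 to 3298 counts in Atg7-KO mice, varied among cont. mice, with 4646, 851 and 0 counts in mice 1, 2 and 3. Gm5512, which shares 72.2% of its 75-base stretches with Rmnd1, was near 0 in Atg7-KO mice (at most 1.85 CPM) and in cont. mouse 1 (0.172 CPM), but at 29.2 and 61.1 CPM in cont. mice 2 and 3 and at 43.8 to 59.1 CPM in Atg7-KO;p62T352A mice. The cause of these patterns was not tested.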
